A study of Drosophila melanogaster with 4 samples.

Results

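The age dependence of the curcumin difference was described gene by gene in whole Canton-S flies, a wild-type strain of Drosophila melanogaster. It was computed as the log2 difference between old flies with and without curcumin minus the same difference in young flies, and is called the interaction below. A positive interaction means that the curcumin difference was higher in old flies, and a negative one that it was lower in old flies. Every probe set naming 1 gene with a deposited log2 value of 5 or above on at least 2 of the 4 arrays was used, which gave 9124 of 18769 probe sets and 8627 of 11982 genes with a single-gene probe set. The rule used signal level alone and no difference between groups. At the edge of the rule, 159 probe sets had a second-highest value from 5 to 5.1 and entered, and 160 had one from 4.9 to 5 and did not.

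The 4 groups were old flies (40 days) fed 100 µM curcumin, old flies fed the carrier alone, young flies (1 to 3 days) fed 100 µM curcumin, and young flies fed the carrier alone. Curcumin, a polyphenol of turmeric, was added to a sucrose and yeast diet in ethanol, and the flies without curcumin received ethanol alone. Each group was 1 pool on 1 Affymetrix Drosophila Genome 2.0 array, with 30 males and 30 females in each pool per the labels. Age and time spent on curcumin food cannot be told apart, and neither can a group and its pool or array. With 4 arrays in 4 groups the interaction takes every array and leaves nothing over, so it has no error and no test, and values are given as higher or lower. How precise any value is depends on that number of arrays. Signals below come from MAS5, which combines the probes of a set into 1 value, and were rescaled to a common trimmed mean, and values under 32 units (log2 5) were counted as 32.

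Insects meet bacteria and fungi with peptides that the fat body and the gut release, through the Toll and Imd pathways and their NF-kB factors. In fruit flies the level of these peptides is known to climb with age and with the bacterial load of the gut. Digestive serine proteases and glycosidases are made in the midgut, and the seminal proteins of the male accessory gland are among the most abundant transcripts of male flies.

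Most transcripts specific to females were under the floor, although the labels give 30 females in each pool. Of 23 genes of yolk, eggshell and oocyte, 21 were under 32 units on all 4 arrays. The yolk protein gene Yp1, one of the strongest transcripts of adult females, read 27.4 in old flies with curcumin, 9.55 in old flies without it, 11.7 in young flies with it and 13.4 in young flies without it. The exceptions were Yp3, at 43.6 to 57.9 units, and the oocyte signal gene grk, at 245 to 288 units. In contrast, 24 of 25 accessory gland genes and 25 of 39 testis and sperm genes were above 32 units on every array. The female transcripts therefore go against the label of every pool, and every list value below is to be read with this in view.

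At a threshold of 2-fold, 496 genes had a positive interaction (5.75% of all) and 127 a negative one (1.47%). The median over all genes was 0.01 and the SD 0.54 on the log2 scale, with 5th and 95th percentiles of -0.68 and 1.05. Centring each array on its median moved the median of all genes to -0.13 and turned the share of positive calls from 79.6% to 62.1%, so the excess of positive calls depends in size on the scaling. Of the positive genes 419 were measured on all 4 arrays, 75 were lower bounds and 2 had values below the floor that leave no bound. Of the negative genes 104 were measured, 13 were lower bounds, 2 were upper limits and 8 had no bound, so the size of those 10 is not settled. The spread between probe sets of 1 gene on the same arrays is the only repeat measurement here. Over 395 genes with 2 such probe sets, the interactions differed by a median of 0.32 and a 90th percentile of 0.74 on the log2 scale. Of 16 genes past 2-fold by their brighter probe set, 15 had the same direction by the other and 4 were also past 2-fold by it.

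The interaction was mostly a difference among old flies. Curcumin differences past 2-fold were found in old flies for 392 genes with higher signal (4.54% of all) and 89 with lower signal (1.03%), and in young flies for 17 with higher signal (0.197%) and 18 with lower signal (0.209%). The curcumin difference was the larger in old flies for 462 of the 496 positive genes and 105 of the 127 negative genes, beside 63.5% of all genes. No gene had curcumin differences past 2-fold in opposite directions at both ages. In 169 positive and 58 negative genes neither age reached 2-fold alone, so the interaction was the sum of smaller differences.

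**Figure D1:**
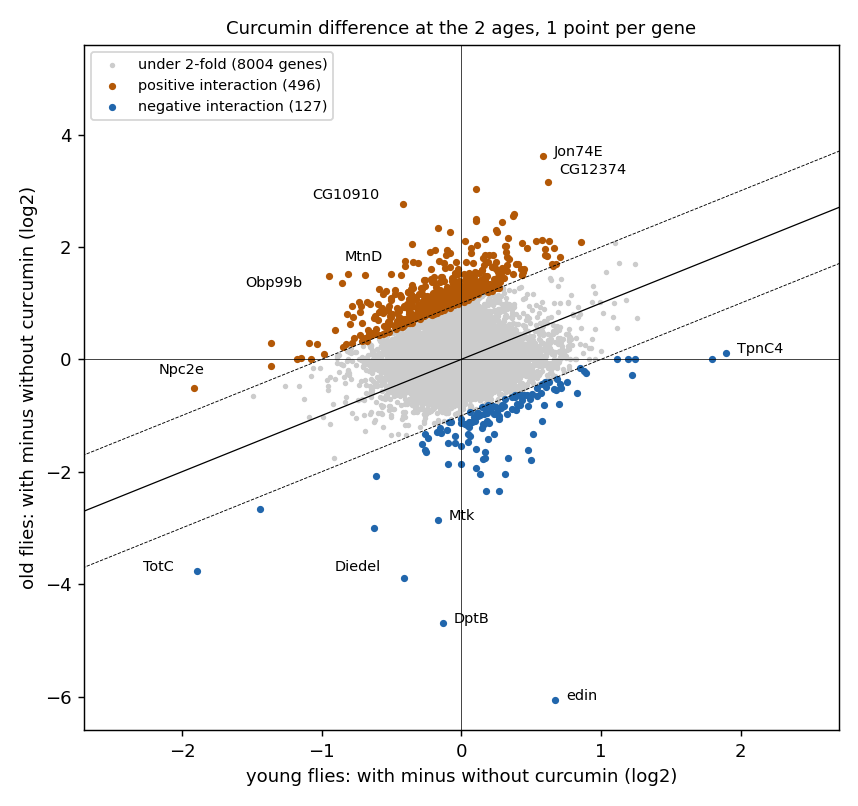
Curcumin difference (log2 signal with minus without) in old flies on the vertical axis against that in young flies on the horizontal axis, 1 point per gene (n = 8627). The solid line marks equal differences at both ages and the dashed lines an interaction of 2-fold. The 496 positive and 127 negative genes spread along the vertical axis far more than along the horizontal one, with edin, DptB and Diedel lowest and Jon74E and CG12374 highest.

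The array that carried the interaction was in most cases that of old flies without curcumin. An array was said to stand apart for a gene when its distance to the nearest of the other 3 exceeded the range of those 3. The old array without curcumin stood apart for 374 of the 496 positive genes (75.4%) and for 81 of the 127 negative genes (63.8%). Where it stands apart, the definition leaves it only the lowest place in a positive gene and the highest in a negative one. Among all genes it stood apart for 2586 (30.0%), and among genes with an interaction under 2-fold for 26.6%. The median gap was 1.12 log2 units in the positive genes, where the other 3 arrays spanned a median of 0.45, and 1.11 in the negative genes, where they spanned 0.38. The old array with curcumin stood apart for 28 of the 623 genes, the young array with curcumin for 20 and the young array without curcumin for 8. For the remaining 112 genes no array stood apart.

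**Figure D2:**
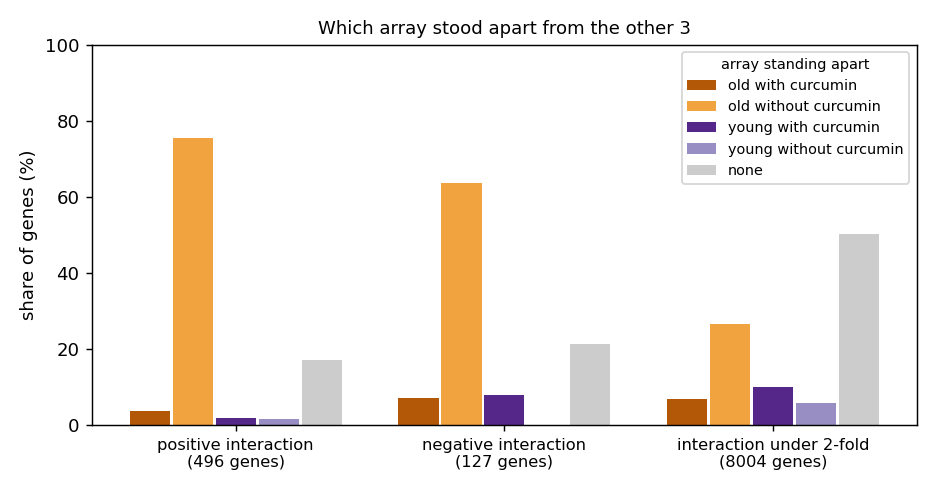
Share of genes (vertical axis, percent) for which each array, or none, stood apart from the other 3, for genes with a positive, a negative and an under-2-fold interaction. The bar of the old array without curcumin reaches 75.4% and 63.8% in the first 2 sets and 26.6% in the last.

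The pairwise distances between arrays were ordered in the same way. The SD of the log2 difference over the 8627 genes was 0.50 between old flies with and without curcumin and 0.28 between young flies with and without it. Between old and young flies it was 0.52 with curcumin and 0.71 without it. Old flies with curcumin were nearer to young flies without curcumin (0.42) than to old flies without curcumin. Of the member genes, 96.6% were at or above 32 units in old flies with curcumin, 93.0% in old flies without it, 96.6% in young flies with it and 97.6% in young flies without it. Whether the single pool, its RNA or its hybridisation had a part in the position of the old array without curcumin was not tested.

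The negative interactions were led by immune effectors. All 7 antimicrobial peptide genes with a single-gene probe set passed the filter on signal, and all were past 2-fold negative, beside 1.47% of all genes, with a median of -2.60. The median curcumin difference of these 7 genes was -2.85 in old flies and -0.13 in young flies. The old array without curcumin stood apart for each of the 7, and with a negative interaction it can then only be the highest. In bulk RNA, fewer cells of a type and less RNA per cell cannot be told apart.

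DptB, a diptericin made under Imd signalling, read 158 in old flies with curcumin and 4087 in old flies without it, against 238 in young flies with curcumin and 261 in young flies without it. Its signal was thus high on 1 array and close together on the other 3, and its interaction was -4.56. Mtk, the antifungal peptide metchnikowin, read 849 in old flies with curcumin and 6132 in old flies without it, against 1373 in young flies with it and 1544 in young flies without it, an interaction of -2.68. Drs, the Toll-driven antifungal peptide drosomycin, read 880 and 4462 in old flies with and without curcumin, and 1501 and 1330 in young flies with and without it, an interaction of -2.52. The old flies with curcumin had the lowest signal of the 4 groups for all 3 of these genes.

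The gene edin, whose product is released on infection, read 15.2 in old flies with curcumin and 2131 in old flies without it, against 51.0 in young flies with it and 12.4 in young flies without it. Counting the values under 32 units as 32, its interaction was negative by at least 106-fold. CecB, a cecropin, read 34.5 and 174 in old flies with and without curcumin and 38.5 and 30.1 in young flies with and without it, which was negative by at least 6.08-fold. The other 2 members, AttD and Def, were named to complete the list after their values were seen. AttD, an attacin, read 37.0 and 297 in old flies with and without curcumin and 17.1 and 49.4 in young flies with and without it, and its interaction of -2.38 is an upper limit of size because the young value with curcumin was below the floor. Def, the insect defensin, read 124 and 788 in old flies with and without curcumin and 73.2 and 199 in young flies with and without it, an interaction of -1.22. These 4 genes had their highest signal in the same group as the other 3.

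Peptides of related families did not follow 1 direction. Among the 4 of 7 drosomycin-like and andropin genes that passed the filter, Drsl2 had an interaction of -2.29, with 565 and 1955 units in old flies with and without curcumin and 485 and 344 in young flies with and without it. Drsl4 (1.16), Drsl5 (1.08) and Anp (1.27), the last a peptide of the male ejaculatory duct, were past 2-fold positive. Drsl4 read 2392 in old flies with curcumin and 787 in old flies without it, against 5150 in young flies with it and 3774 in young flies without it. Of 8 bomanin genes, short peptides under Toll control, BomT2 was at -1.11 and BomT3 at 1.04, and the median was -0.35.

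Upstream of the peptides the interactions were smaller and also mostly negative. The 8 of 9 recognition genes that passed the filter were all below 0, with a median of -0.51. Past 2-fold were 2 (25.0%, beside 1.47% of all genes). PGRP-SB1, a secreted amidase that cuts peptidoglycan, read 654 and 2380 in old flies with and without curcumin and 533 and 569 in young flies with and without it, an interaction of -1.77. PGRP-SC2, an amidase that dampens Imd signalling, was at -1.12, and there the old array with curcumin stood apart as the lowest, at 790 units beside 1381 to 1619 on the other 3. Of the 17 of 18 Toll and Imd signalling genes that passed the filter, 15 were below 0 and 2 (11.8%) past 2-fold. These were Rel, the NF-kB factor of the Imd pathway (-1.42), and cact, the inhibitor that holds Dorsal and Dif in the cytoplasm (-1.05). Rel read 895 and 2295 in old flies with and without curcumin, and 883 and 846 in young flies with and without it. Its signal was therefore raised on the old array without curcumin and level on the other 3.

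Of 12 JAK/STAT and humoral stress genes 6 passed the filter, and 2 of them were past 2-fold negative (33.3%, beside 1.47% of all genes). Diedel, a small secreted protein that restrains Imd signalling, read 41.1 in old flies with curcumin and 612 in old flies without it, against 47.9 in young flies with it and 63.8 in young flies without it, an interaction of -3.48. TotC, a Turandot protein of the humoral stress response, was lower with curcumin at both ages. It read 352 and 4770 in old flies with and without curcumin, and 777 and 2879 in young flies with and without it, so that its interaction of -1.87 was the excess of a log2 difference of -3.76 in old flies over one of -1.89 in young flies, and no array stood apart.

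Hemocyte and thioester genes had a median of -0.40 over the 15 of 20 that passed the filter. Past 2-fold negative were 5 (33.3%, beside 1.47% of all genes). These 5 were genes of the Nimrod family, which includes receptors for phagocytosis, and were led by NimB3 at -2.09, with 81.0 and 273 units in old flies with and without curcumin and 159 and 126 in young flies with and without it. Among the 5, NimB1 and NimC4 had values below the floor and were lower bounds. Not all blood cell genes went this way, as 4 of the 15 were above 0. They were PPO1 (0.81) and, named after their values were seen, PPO2 (0.56), Tep4 (0.12) and Hml (0.10). The summed signal of the 15 genes was 7053 in old flies with curcumin, 9121 in old flies without it, 5089 in young flies with it and 5727 in young flies without it, and the part of blood cell number in the immune values was not tested. Serpins and melanin enzymes were grouped after their values were seen. Of 23 serpins, which inhibit serine proteases, 5 were past 2-fold positive and 3 negative, with Spn88Eb at -2.36 and Spn28Dc at -1.93, and with Spn47C at 1.67 and Spn77Bc at 1.30. Spn77Bc is also counted in the accessory gland list below. Of 12 melanin and catecholamine genes 2 (16.7%) were past 2-fold negative. The old array without curcumin stood apart for 10 of the 12 (83.3%, beside 30.0% of all genes). Ddc, the dopa decarboxylase that makes dopamine, read 226 and 862 in old flies with and without curcumin and 251 and 234 in young flies with and without it (-2.03). Hayan, a protease that activates prophenoloxidase, was at -1.92, while PPO1, a prophenoloxidase itself, was at 0.81. The 12 most negative measured genes also held hdly (-2.18) and CG11425 (-2.08), both highest in old flies without curcumin, at 1978 and 336 units.

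**Figure D3:**
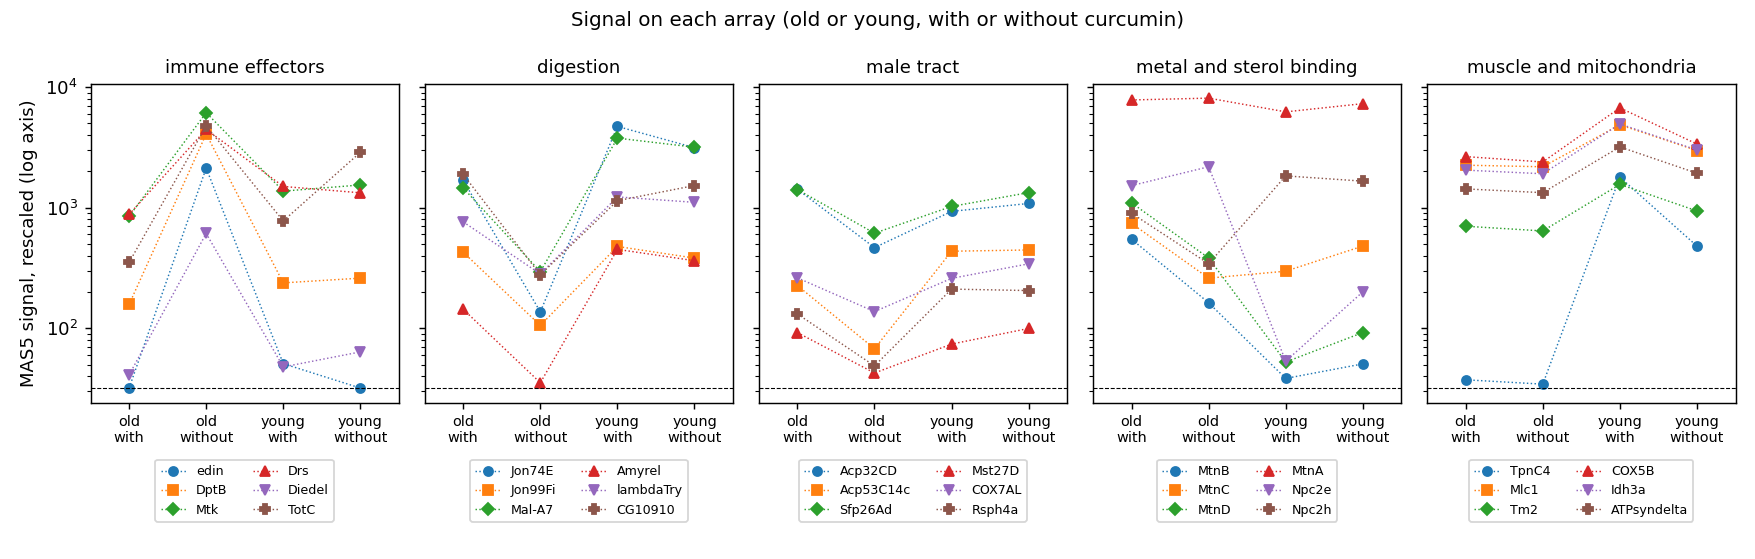
Rescaled MAS5 signal (log axis) on each of the 4 arrays for 6 genes of each of 5 functions, 1 point per array, with dotted lines joining the points of a gene and a dashed line at 32 units, the value given to lower signals. Immune effectors peak on the old array without curcumin, digestive and male genes dip on it, MtnB, MtnC and MtnD are highest on the old array with curcumin, and the muscle and mitochondrial genes are highest on the young array with curcumin.

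Large shares of the Jonah, trypsin and sugar digestion lists had a positive interaction past 2-fold, though most of the 496 positive genes lay outside these lists. Of the 12 of 13 Jonah genes that passed the filter, serine proteases of the midgut, 7 were past 2-fold positive, beside 5.75% of all genes, and all 12 were above 0, with a median of 1.06. Their median curcumin difference was 1.56 in old flies and 0.56 in young flies, and 10 of the 12 were past 2-fold higher with curcumin in old flies and 0 in young flies. Jon74E read 1683 in old flies with curcumin and 137 in old flies without it, against 4721 in young flies with it and 3146 in young flies without it, an interaction of 3.03. Jon99Fi read 427 and 106 in old flies with and without curcumin and 478 and 383 in young flies with and without it (1.69). Jon99Ci (1.63) and Jon25Biii (1.57) were also lowest in old flies without curcumin and highest in young flies with curcumin. The Jonah genes are close relatives, so some of their probe sets may share transcripts.

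Of 10 trypsins 5 were past 2-fold positive (50.0%, beside 5.75% of all genes). They were led by lambdaTry (1.29), etaTry (1.25), thetaTry (1.24) and betaTry (1.16). The lambdaTry gene read 763 in old flies with curcumin and 282 in old flies without it, against 1230 in young flies with it and 1108 in young flies without it. CG12374, a predicted metallocarboxypeptidase, read 651 and 72.7 in old flies with and without curcumin and 5975 and 3887 in young flies with and without it, an interaction of 2.54. For CG12374 no array stood apart, because old and young flies differed on both diets.

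Of 12 genes of sugar and starch digestion 8 were past 2-fold positive (66.7%, beside 5.75% of all genes), and the median was 1.17. The old array without curcumin stood apart for 10 of the 12 (83.3%, beside 30.0% of all genes). The maltase Mal-A8 read 1012 in old flies with curcumin and 236 in old flies without it, against 1576 in young flies with it and 1552 in young flies without it (2.08). Mal-A7, its neighbour in name and function, was at 2.05, Amyrel, an amylase relative, at 1.71, and tobi, a glucosidase under insulin-producing cell control, at 1.67. Of the 12 genes 9 were above 0 and 3 below, and the lowest was the maltase gene Mal-B1 at -0.74, which was named after its values were seen. The median curcumin difference of the list was 1.32 in old flies and 0.08 in young flies. The lysosomal alpha-mannosidases, grouped after their values were seen, had 3 of 5 past 2-fold positive, namely LManVI (1.54), LManV (1.5) and LManIII (1.12), while LManII was at -0.14 and LManI at -0.32. Other lists set beside these did not behave so. All 3 lysozyme genes were below 0, with a median of -0.28. LysX was past 2-fold negative at -1.05, LysP was at -0.28, and LysS, near 0, had values below the floor that leave no bound. The 7 lipase and lipid droplet genes had 1 past 2-fold, the lipase gene mag at 1.36. The 21 genes of the chitin and peritrophic matrix list, which also holds the Idgf genes, had a median of -0.24, with Muc68E at 1.69 and Idgf1 at -1.31.

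Genes of the male accessory gland, which makes the seminal fluid proteins, had mostly positive interactions. Of 25 accessory gland genes 12 were past 2-fold positive (48.0%, beside 5.75% of all genes) and 0 negative, with a median of 0.89. The old array without curcumin stood apart for 19 of the 25 (76.0%, beside 30.0% of all genes). Acp32CD read 1422 in old flies with curcumin and 467 in old flies without it, against 933 in young flies with it and 1085 in young flies without it (1.82). Acp53C14c read 226 and 67.9 in old flies with and without curcumin and 436 and 447 in young flies with and without it (1.77). SP, the sex peptide that alters female behaviour after mating, was chosen after its values were seen and read 2958 and 1267 in old flies with and without curcumin and 3805 and 3842 in young flies with and without it (1.24). Summed over the 25 genes the signal was 72544 in old flies with curcumin, 41651 in old flies without it, 78571 in young flies with it and 81723 in young flies without it. Accessory gland transcripts therefore had similar totals in 3 groups and a lower one in old flies without curcumin, and the part of male share or gland size in this was not tested.

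Of the 33 of 39 testis and sperm genes that passed the filter, 2 were past 2-fold positive (6.06%), a share near that of all genes, with a median of 0.26. The old array without curcumin stood apart for 8 of the 33 (24.2%), less than its 30.0% of all genes. The young array without curcumin also stood apart for 8, beside 5.65% of all genes. The summed signal was 6860 and 5967 in old flies with and without curcumin, and 7965 and 8828 in young flies with and without it. Mst27D was the largest at 1.54, with 92.2 and 42.7 units in old flies with and without curcumin and 74.1 and 99.9 in young flies with and without it. Duplicate copies of mitochondrial and proteasome subunits, many of which are testis genes in this species, are given beside them. The 21 of 22 duplicate oxidative phosphorylation genes that passed the filter were all above 0, with a median of 0.87. Past 2-fold were 5 (23.8%, beside 5.75% of all genes), led by COX7AL (1.33), ND-24L (1.27) and ATPsynCF6L (1.22). The 11 of 14 testis proteasome genes that passed the filter were also above 0, with a median of 0.67. Past 2-fold were Prosbeta2R2 (1.31) and Rpt3R (1.13), which is 18.2% of the list. Of these 11, 6 had a value below the floor, Prosbeta5R1 was an upper limit, and with a floor at log2 6 the median was 0. The old array without curcumin stood apart for 5 (45.5%, beside 30.0% of all genes) and the young array without curcumin for 3. Of 19 genes for dynein arms and the axoneme, the core of the sperm tail and of sensory cilia, 10 (52.6%) were past 2-fold. They were led by dtr (1.44), Zmynd10 (1.41) and Rsph4a (1.39), in a list put together after values were seen. Zmynd10 read 125 and 49.0 in old flies with and without curcumin and 147 and 153 in young flies with and without it. Its lowest signal was in old flies without curcumin, whose array stood apart for 14 of these 19 genes (73.7%). With a floor at log2 6 the median of the 19 was 0.28 in place of 1.02, and that of the 21 duplicate oxidative phosphorylation genes 0.49 in place of 0.87.

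The standard copies of the same mitochondrial complexes went the other way and by little. None of the 55 standard oxidative phosphorylation genes passed 2-fold in either direction, and 52 were below 0, with a median of -0.28, which lay between -0.43 and -0.17 under the other 3 scalings. Their median curcumin difference was 0.19 in old flies and 0.53 in young flies. The old array without curcumin stood apart for 0 of the 55 and the young array with curcumin for 21 (38.2%), beside 9.61% of all genes. COX5B, a subunit of cytochrome c oxidase, read 2654 in old flies with curcumin and 2395 in old flies without it, against 6728 in young flies with it and 3373 in young flies without it (-0.85). Here the young flies with curcumin were high and the old flies were close together.

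Muscle genes were mixed. Of 23 contraction genes 0 were past 2-fold positive and 2 negative, 16 were below 0 and 7 above, and the median was -0.17. The median curcumin difference was 0.33 in old flies and 0.51 in young flies. The young array with curcumin stood apart for 8 (34.8%, beside 9.61% of all genes) and no array for 13. TpnC4, a troponin C of the flight muscle, read 37.5 and 34.5 in old flies with and without curcumin and 1792 and 481 in young flies with and without it, an interaction of -1.78 that came almost wholly from young flies. Mlc1, a myosin light chain, read 2253 and 2185 in old flies with and without curcumin and 4868 and 2977 in young flies with and without it (-0.67). The other past 2-fold, TpnC73F at -1.20, had its highest signal in old flies without curcumin. Summed muscle signal was 25370 in old flies with curcumin, 21584 in old flies without it, 63326 in young flies with it and 39623 in young flies without it, and the part of tissue share in these values was not tested. The Krebs cycle and glycolysis lists had medians of -0.13 and -0.29 and no gene past 2-fold. All 10 basement membrane genes, a list put together after values were seen, were below 0, led by the collagen IV genes Col4a1 (-1.11) and vkg (-1.05).

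**Figure D4:**
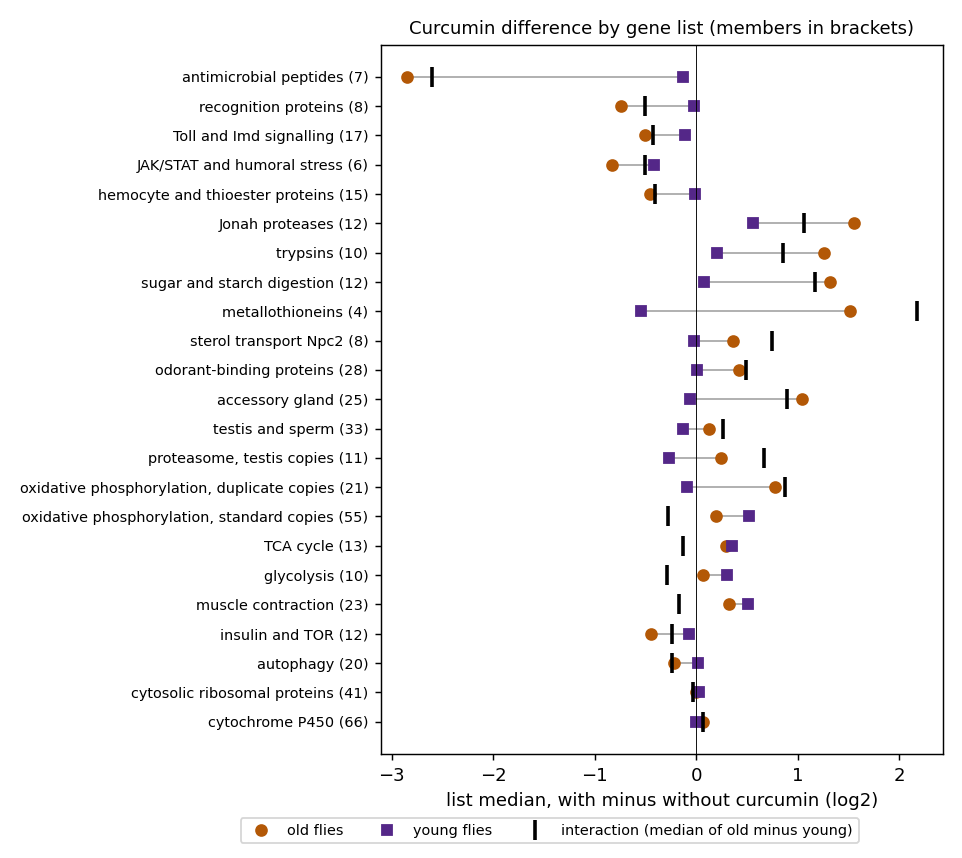
Median curcumin difference (log2, with minus without) of each gene list in old flies (circles) and young flies (squares), with the median interaction as a vertical bar. Antimicrobial peptides lie far to the left in old flies, digestive, metallothionein and accessory gland lists to the right, and the standard oxidative phosphorylation and muscle lists have the young median above the old one.

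Metallothioneins, small proteins that bind copper, zinc and cadmium, carried a positive interaction without the old array lacking curcumin standing apart. Of 4 genes 3 were past 2-fold (75.0%, beside 5.75% of all genes), with a list median of 2.18. MtnD read 1097 in old flies with curcumin and 383 in old flies without it, against 52.6 in young flies with it and 92.3 in young flies without it (2.33). MtnB read 549 and 163 in old flies with and without curcumin and 38.5 and 50.8 in young flies with and without it (2.15). For MtnB and MtnD both old groups were above both young groups, and signal with curcumin was higher in old flies and lower in young flies. MtnC, at 742 and 261 in old flies with and without curcumin and 298 and 481 in young flies with and without it (2.20), had its highest value in the same group. MtnA, at 6232 to 8100 units on the 4 arrays, was at 0.18.

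The sterol transport list held carriers of the Npc2 family together with Npc1a. Of the 8 of 9 genes that passed the filter, 3 were past 2-fold positive (37.5%, beside 5.75% of all genes). All 3 were Npc2 genes, with different arrangements of the groups. Npc2h read 900 and 343 in old flies with and without curcumin and 1836 and 1661 in young flies with and without it (1.25), and so resembled the digestive genes. Npc2e read 1526 and 2185 in old flies with and without curcumin and 53.4 and 201 in young flies with and without it, so its interaction of 1.39 came from a larger curcumin difference in young flies. Odorant-binding proteins, carriers of small hydrophobic molecules made in many tissues, had a median of 0.49 over the 28 of 48 that passed the filter. Past 2-fold positive were 7 (25.0%, beside 5.75% of all genes). Obp99b read 695 in old flies with curcumin and 248 in old flies without it, against 1318 in young flies with it and 2547 in young flies without it (2.44), and Obp56a was at 1.97.

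Among the 12 most positive measured genes, 8 have no list. CG10910 had the largest interaction, 3.18, with 1886 units in old flies with curcumin and 278 in old flies without it, against 1144 in young flies with it and 1528 in young flies without it. CG5107 (2.92), CG3739 (2.50) and smp-30 (2.40), the last a relative of the calcium-binding protein regucalcin, were also low in old flies without curcumin alone, at 345, 204 and 381 units. CG13947 (2.41), CG11211 (2.35) and CG8329 (2.21) completed the unlisted genes together with CG12374. The UDP-glycosyltransferase Ugt37A2 (2.36) was the largest among the detoxification genes, with 196 and 35.5 units in old flies with and without curcumin and 112 and 104 in young flies with and without it. Lower bounds were largest for cocoon (at least 4.38-fold), CG10505 (at least 3.57-fold), CG14011 (at least 3.40-fold) and CG17650 (at least 3.26-fold). Genes named only by a CG number made up 58.3% of the positive, 35.4% of the negative and 40.1% of all genes. The 52 lists together held 91 of the 496 positive and 34 of the 127 negative genes, so most genes past 2-fold lay outside them. Without the 5 lists added after values were seen, the lists held 74 positive genes (14.9%) and 28 negative ones (22.0%), beside 9.85% of all genes.

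**Figure D5:**
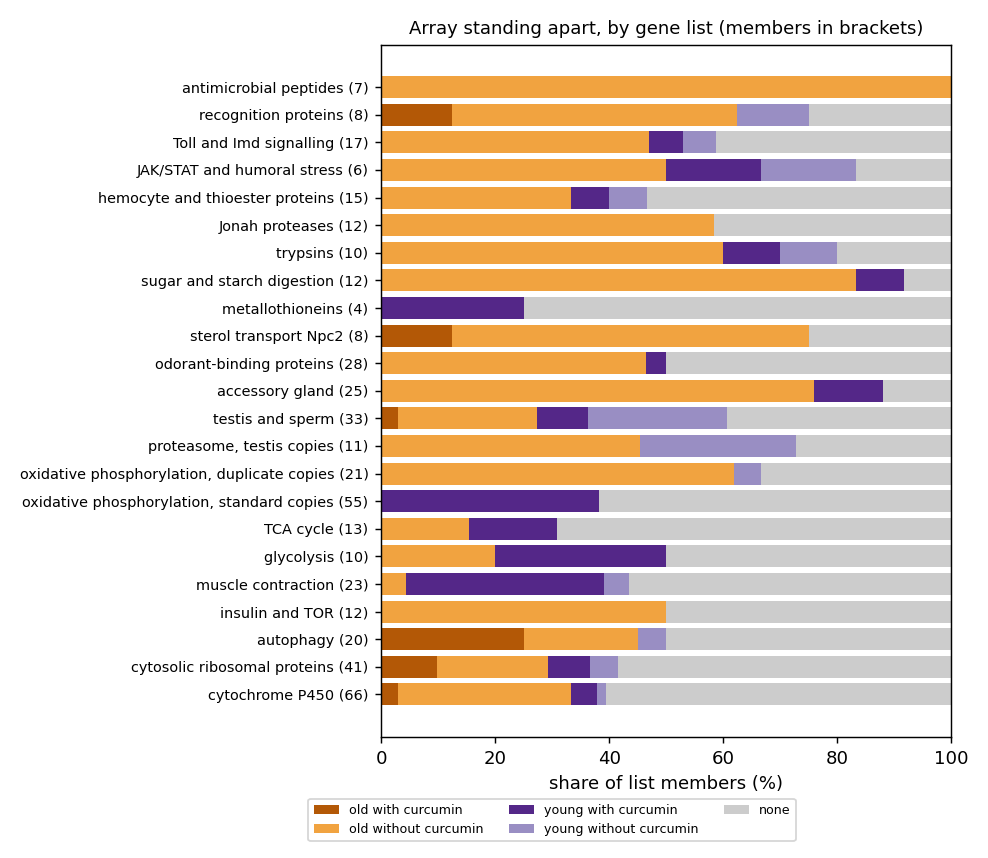
Share of the members of each gene list (horizontal axis, percent) for which each array, or none, stood apart. The old array without curcumin fills the whole bar of the antimicrobial peptides and most of that of the accessory gland and sugar digestion lists, and no part of the standard oxidative phosphorylation list, where the young array with curcumin has 38.2%.

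Lists tied to detoxification, stress and ageing were counted against the 5.75% of all genes that were past 2-fold positive. Past 2-fold positive were 3 of 66 cytochrome P450 genes, 3 of 25 UDP-glycosyltransferases, 1 of 30 glutathione transferases, 1 of 16 heat shock genes and 0 of 14 antioxidant enzymes, and 0 of these were past 2-fold negative. That is 4.55% for P450, 6.25% for heat shock and 12.0% for UDP-glycosyltransferases, so the first 2 were near the share of all genes. The P450, glutathione transferase and antioxidant medians were 0.06, 0.14 and 0.06 and turned negative with median centring, so they have no settled direction. Of 12 insulin and TOR genes 0 were past 2-fold and 11 were below 0. InR, the insulin receptor, read 234 in old flies with curcumin and 515 in old flies without it, against 127 in young flies with it and 145 in young flies without it (-0.94). Akt, the kinase below it, read 329 and 629 in old flies with and without curcumin and 182 and 231 in young flies with and without it (-0.59). Both were highest in old flies without curcumin. Of 15 JNK and methuselah genes, grnd, a receptor of the fly tumour necrosis factor, was past 2-fold negative (-1.21). Of 41 cytosolic ribosomal protein genes the duplicate copies RpL37-2 (1.13) and RpS10a (1.10) were past 2-fold positive, both with values below the floor. That is 4.88%, near the 5.75% of all genes, and the list median of -0.03 changed sign with the scaling.

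The age difference gave the same values from the other side. Of the positive genes 333 differed 2-fold or more between old and young flies without curcumin only, 27 with curcumin only, 47 on both diets and 89 on neither. Of the negative genes 78 differed without curcumin only, 12 with curcumin only, 4 on both and 33 on neither. Among all 8627 genes, 354 were 2-fold or more higher in old than in young flies without curcumin and 751 were lower. With curcumin these counts were 252 and 199, and a gene that differed on both diets is in both pairs of counts. For the 7 antimicrobial peptides the median difference of old minus young flies was -0.59 with curcumin and 2.45 without it, and for the 12 Jonah genes it was -1.56 with curcumin and -2.60 without it. For the 4 metallothioneins the difference was the larger with curcumin, with medians of 2.58 with curcumin and 0.92 without it.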

How the data were processed

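The values are log2 MAS5 signals per probe set that the authors deposited for 4 arrays. MAS5 is named in the submitters' processing notes, with no version given in the sources used here. The log2 basis was read from the values, which ran from -4.67 to 13.4. No detection calls, genome build or coordinates were used.

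Each array's signal was scaled to the same 2% trimmed mean (factors of 0.976 and 0.975 for old flies with and without curcumin, 1.06 and 0.991 for young flies with and without it), floored at 32 units and log2-transformed. The filter was applied to the deposited values. Of 18769 probe sets 13647 had 1 gene name in the platform table, 402 several and 4720 none, and 13544 of the 13647 matched the current gene table. The brightest probe set stood for a gene. With a value below the floor, an interaction is a lower bound, an upper limit or neither, and folds are computed against the floor.

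No p-value was computed. By rule, genes were named if among the 12 measured values highest or the 12 lowest, with up to 4 lower bounds each way, up to 4 members per list (every member of lists of up to 5) and up to 4 genes each way with the largest opposite differences. The members and lists were chosen with earlier results of these data known. Of 52 lists, 5 were added after values were seen, and after values were seen LysRS, Cp190, ND-51L1 and ND-MNLL, caught by name in the wrong list, were removed or moved. The interaction was tested on simulated data without rescaling and with every value above the floor. The labels of lower bound, upper limit and no bound were not tested in this way. It used Python 3.11.15, numpy 2.4.6, pandas 2.3.3, scipy 1.17.1 and matplotlib 3.10.9. Alternatives were other scalings, floors, filters, probe set rules and thresholds.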

Additional observations from a re-analysis of the deposited data

Results flagged for a closer look

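Curcumin differences of 1.5-fold or more in opposite directions at the 2 ages were found in 20 genes with a positive interaction (0.232% of all) and 4 with a negative one (0.0464%). Of these, 17 and 3 were measured on all 4 arrays, and the 7 named by the rule above are given here. The difference between the ages was not tested in any of them, since each group is 1 array.

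In 4 of the 7 signal was higher with curcumin in old flies and lower with it in young flies. Obp99b (2.44) and MtnD (2.33) are described above. CG8329 read 960 in old flies with curcumin and 375 in old flies without it, against 767 in young flies with it and 1386 in young flies without it, an interaction of 2.21. Obp56f, an odorant-binding protein, read 662 and 376 in old flies with and without curcumin and 347 and 612 in young flies with and without it, an interaction of 1.63. In the other 3 the directions were turned round. The gene phu read 400 and 697 in old flies with and without curcumin and 421 and 260 in young flies with and without it, an interaction of -1.5. CG8765 read 99.5 and 150 in old flies with and without curcumin and 170 and 95.5 in young flies with and without it, an interaction of -1.42. The muscle gene zormin, a relative of titin, read 184 and 322 in old flies with and without curcumin and 450 and 299 in young flies with and without it, an interaction of -1.40, and there the old array with curcumin stood apart.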

How the results depend on the processing

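No paired analysis was possible because each group is 1 array, and no array could be left out because the interaction needs all 4. The count of genes past 2-fold was 496 positive and 127 negative. It was 75 and 25 at 3-fold, 307 positive with a floor at log2 6, 253 and 64 with a pseudocount of 32 units, and 212 negative with centring on each array's median. Under the other alternatives both counts lay within 1.5 times of these. The share of all genes for which the old array without curcumin stood apart was 30.0%, and it was 33.8% with median centring, 31.3% with a floor at log2 4, 25.9% with a floor at log2 6, 31.4% with no floor, 27.7% with no rescaling and 14.3% when the gap had to be 2 times the range. Among positive genes that share, 75.4%, was 68.8% with no rescaling and 44.8% at 2 times the range. Among negative genes it was 63.8%, and 54.2% with a floor at log2 4, 53.9% with no floor, 74.5% with no rescaling, 78.1% with the pseudocount and 47.2% at 2 times the range. The cause of these shifts was not tested. Of 52 list medians 14 changed sign under at least 1 alternative, 13 of them with the scaling, and of the 15 at 0.5 or more in size 0 did. Of 226 named genes 2 changed sign, and of the 110 past 2-fold 0 did. Of the alternative list medians 449 moved by less than the median difference between probe sets of 1 gene and 19 by more, and of the named genes' values 1910 and 107. That yardstick comes from single genes and is wide for a list median. Median centring and no rescaling each move every interaction above the floor by 1 constant smaller than the yardstick. For such values these 2 settings could not have counted as moved. Low signal limits the lower bounds, and the single array per group limits every value.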

Other observations

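Nerve, eye and cuticle genes were not described above. Of 23 synaptic and neuronal genes 17 were below 0, with a median of -0.30, and besides Ddc none was past 2-fold. The GABA receptor gene Rdl read 45.6 and 68.9 in old flies with and without curcumin and 91.7 and 69.6 in young flies with and without it (-0.99), and the calcium channel gene cac was at -0.76. Of 14 genes of the eye and phototransduction 12 were below 0, with a median of -0.34. Neuropeptide genes had a median of 0.20 over 19 genes, with Nplp3 at 0.97 and the diuretic hormone gene Dh31 at 0.89. Nplp3 read 349 in old flies with curcumin and 83.1 in old flies without it, against 2885 in young flies with it and 1347 in young flies without it, and so was higher with curcumin at both ages.

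Among 19 cuticle genes, 1 was past 2-fold positive and 2 negative, and both negative ones had values below the floor that leave no bound. Cpr65Au read 2924 and 911 in old flies with and without curcumin and 4215 and 3769 in young flies with and without it (1.52). CG7203, a gene chosen after its values were seen and in no list, read 86.1 and 32.5 in old flies with and without curcumin and 1567 and 207 in young flies with and without it, so its interaction of -1.52 came with higher signal with curcumin at both ages, and the young array with curcumin stood apart.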
